A study of Mus musculus with 6 samples.

Results

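The genes described here encode the enzymes of glycolysis and gluconeogenesis, together with ketohexokinase, which starts fructose breakdown, and the kinases that close the gate from pyruvate into mitochondria. They were chosen by name, as every entry of the count table whose symbol was on a list of 34 symbols. These 34 genes held 35 of the 25031 entries of that table. All 34 symbols were found, in 35 entries, because Aldoa was listed under 2 gene identifiers. The second Aldoa entry (ENSMUSG00000114515), which lies next to the first on chromosome 7, held between 3 and 15 counts per library and was too low to test. The filter on low counts kept the other 34 entries, which were tested together with the rest of 15416 genes.

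Messenger RNA was sequenced from kidneys of wild-type male C57BL/6 mice, an inbred laboratory strain, aged 7 to 8 weeks. All animals had the same injury, in which blood flow to both kidneys was stopped for 23 minutes at a body temperature of 37 °C and then restored. The vehicle group (3 libraries) received saline, and the CePPy group (3 libraries) received 5 mg/kg of (+)CePPy, a polypyrrole nanoparticle that carries cerium and a positive charge, by vein right after the injury. No uninjured or sham-operated kidney was analysed here, so that no value says how far a gene stood from its level in a healthy kidney, and the labels give no hour of collection. The labels do not state that every library came from its own animal, so the spread behind the p-values may be technical.

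Glycolysis breaks glucose down to pyruvate in the cytosol, and lactate dehydrogenase can pass the pyruvate on to lactate. Gluconeogenesis runs the reversible steps backwards and gets around the irreversible ones with pyruvate carboxylase, phosphoenolpyruvate carboxykinase, fructose bisphosphatase and glucose-6-phosphatase. In the kidney the proximal tubule makes glucose and takes up fructose and burns little glucose, while the later nephron segments rely more on glycolysis. Many steps have isoenzymes from separate genes, each favoured by certain tissues, such as the liver and kidney forms Fbp1 and Pklr beside the muscle form Fbp2 and the widespread Pkm.

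Libraries held between 29762157 and 37415213 counts, and 1 count was worth between 0.0267 and 0.0336 CPM of these totals. CPM is a count divided by library size on a common scale, and the values of genes below use sizes adjusted by edgeR. The 34 genes together took between 0.846% and 1.15% of all counts in a library. By tubule markers, CePPy 1 stood farthest from the vehicle libraries and CePPy 2 nearest. The mean log2 level of 12 proximal tubule marker genes, taken against the vehicle mean, was 0.92 in CePPy 1, 0.07 in CePPy 2 and 0.52 in CePPy 3. For 8 markers of injured tubule it was -1.40, -0.14 and -0.32. In bulk tissue, fewer cells of a type and less RNA per cell cannot be told apart.

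The clearest differences between the groups lay in a few isoenzymes and not along the whole pathway. Fbp2 was 2.07-fold lower after CePPy, Pfkfb3 was 1.73-fold higher and Pklr was 1.60-fold higher, each with groups that did not overlap. The gluconeogenic genes Fbp1, G6pc, Pck1 and Pcx and the fructose gene Khk had higher means after CePPy, but their values followed CePPy 1 and CePPy 3 and were near vehicle in CePPy 2. Among the reversible middle steps of glycolysis, the abundant Aldoa, Tpi1, Pgk1, Pgam1 and Eno1 had log2 fold changes between -0.27 and -0.01, whereas the scarce Eno2 was 1.87-fold lower and Aldoc had a log2 fold change of 0.69.

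None of the 34 genes passed the quasi-likelihood test of edgeR at an adjusted p under 0.05 over all genes, against 1 of 15416 genes (0.00649%). An unadjusted p under 0.05 was reached by 16 of the 34 (47.1%), 12 higher and 4 lower, against 19.0% of all genes, 9.65% higher and 9.37% lower. The groups did not overlap for 14 (41.2%), 9 higher and 5 lower, against 26.3% of all genes, 12.3% higher and 14.0% lower. DESeq2, run on the same counts, called 8 of the 34 (23.5%), 5 higher and 3 lower, against 6.60% of the genes it could adjust, 3.40% higher and 3.20% lower. Those called were Pfkfb3, Hk1, Pklr, Pdk2 and Pcx, all higher, and Fbp2, Eno2 and Aldoa, all lower. Limma-voom called 0 of the 34, against 0.00649% of all genes, and its form with sample weights called Pfkfb3, Pklr and Fbp2, against 2.28%. The median log2 fold change over the 34 was 0.16, with 20 above 0 and 14 below, and that over all genes tested was 0.00.

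Leaving out 1 library changed the edgeR counts most for CePPy 2. Without it, edgeR called 9 of the 34 genes (26.5%) against 5.17% of all genes, 2.98% higher and 2.19% lower. The 8 called higher were Pcx, Pdk2, Khk, G6pc, Pfkfb3, Fbp1, Hk1 and Pck1, and Fbp2 was called lower. For all of these 8 but Pfkfb3, CePPy 2 was the lowest CePPy library. Leaving it out was bound to raise their fold changes, so their calls add no independent support. Without vehicle 2 edgeR called 6 of 15730 genes, and Fbp2 was the only one of the 34 among them. Without CePPy 1 it called 2 of 15678 genes, and Pklr was the only one of the 34. Without vehicle 1, vehicle 3 or CePPy 3 it called none of the 34 and no other gene.

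**Figure D1:**
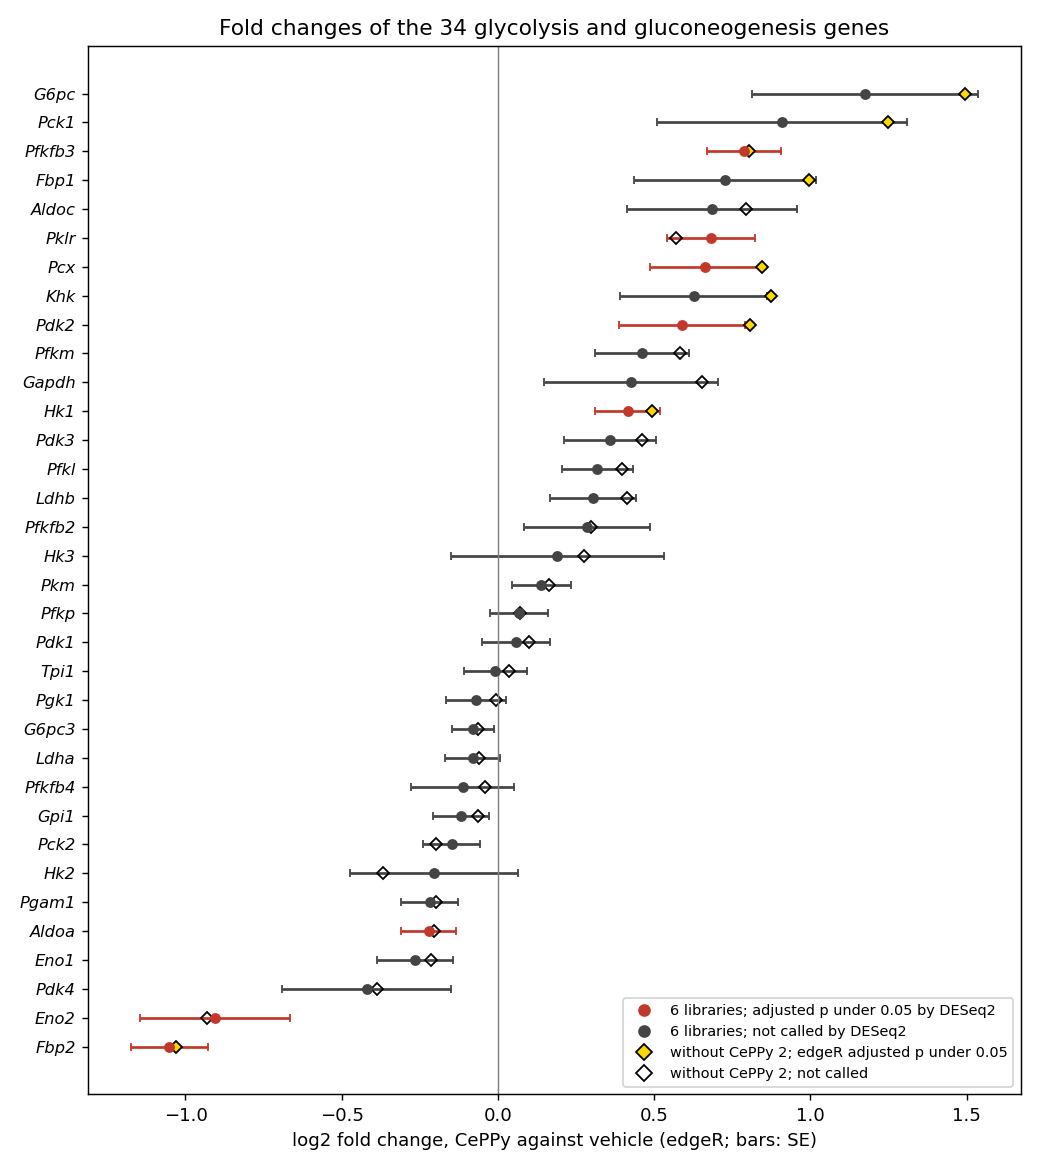
Log2 fold change of each of the 34 genes, CePPy against vehicle, from edgeR with all 6 libraries (circles, bars are the SE) and without CePPy 2 (diamonds). Fbp2 and Eno2 lie lowest, at -1.05 and -0.91, and G6pc lies highest at 1.18, with Fbp1, G6pc, Pck1 and Pcx farther right without CePPy 2 and Fbp2 hardly moved, at -1.03.

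Fructose bisphosphatase removes a phosphate from fructose bisphosphate and so reverses the phosphofructokinase step. Its genes Fbp2 (ENSMUSG00000021456, chromosome 13, 62836877 to 62858422, minus strand, GRCm38) and Fbp1 (ENSMUSG00000069805, chromosome 13, 62864753 to 62888282, minus strand) lie head to tail, 6330 bases apart. Their values differed in opposite directions, and the bases just before the start of each are shown so that these neighbours can be compared. Below them stands Pck1, which encodes the cytosolic phosphoenolpyruvate carboxykinase and has one of the best studied promoters of gluconeogenesis. Each is the 250 bases before the RefSeq start on build GRCm38.p6, read 5′ to 3′ on the strand of the gene, at chr13:62888283-62888532 (minus), chr13:62858401-62858650 (minus) and chr2:173152823-173153072 (plus). The GENCODE gene models used for lengths and coordinates start Fbp2 at 62858422 and Pck1 at 173153048. The last bases of both windows therefore lie inside those models. Capitals mark matches, on either strand, to any of 6 short motifs. Hypoxia-inducible factors bind a core spelled ACGTG in one common form. The other common form of that core reads GCGTG and was searched as well. The cyclic AMP response element was searched by its part TGACG. The TATA box was taken as TATAAA exactly. For the liver and kidney factor HNF1, part of its site, GTTAAT, was used. For the nuclear receptor HNF4 the core CAAAGT was used.
Fbp1: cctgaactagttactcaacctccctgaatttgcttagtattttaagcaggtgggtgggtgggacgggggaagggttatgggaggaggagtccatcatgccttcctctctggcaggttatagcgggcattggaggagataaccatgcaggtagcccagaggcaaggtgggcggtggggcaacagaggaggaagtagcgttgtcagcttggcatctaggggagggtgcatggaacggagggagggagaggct
Fbp2: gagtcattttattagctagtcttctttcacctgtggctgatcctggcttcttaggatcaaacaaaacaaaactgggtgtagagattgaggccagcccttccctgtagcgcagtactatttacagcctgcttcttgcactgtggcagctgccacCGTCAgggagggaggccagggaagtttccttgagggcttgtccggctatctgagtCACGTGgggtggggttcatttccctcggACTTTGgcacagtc
Pck1: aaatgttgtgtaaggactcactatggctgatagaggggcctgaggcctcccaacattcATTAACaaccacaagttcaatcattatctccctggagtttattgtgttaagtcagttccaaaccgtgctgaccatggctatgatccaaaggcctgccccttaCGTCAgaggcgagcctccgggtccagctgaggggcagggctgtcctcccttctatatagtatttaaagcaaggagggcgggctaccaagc

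The Fbp1 window held no match to these letters. The Fbp2 window held CACGTG, a palindrome that contains the hypoxia core on both strands, and single matches to TGACG and to CAAAGT. The CAAAGT match, at position -14 from the RefSeq start, lay inside the GENCODE model of Fbp2. The Pck1 window held TGACG and GTTAAT, each on the minus strand. Of 32851 windows of this length, either hypoxia core was present in 38.6%, TGACG in 17.8%, TATAAA in 12.4%, GTTAAT in 6.43% and CAAAGT in 12.6%. The 34 genes had 52 windows, as some have several starts, and either hypoxia core was present in 71.2% of them. The other motifs were present in 19.2%, 5.77%, 5.77% and 11.5% of the 52, in the same order. By gene, 27 of 34 had either hypoxia core in at least 1 window, and those without were Gpi1, Tpi1, Eno2, Pklr, Fbp1, Pck1 and G6pc. These matches are descriptions of letters, and how base composition moves them was not tested.

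Fbp2, the muscle form, measured 59.5, 43.1 and 53.9 CPM in the vehicle libraries and 26.4, 24.4 and 24.7 CPM in the CePPy libraries. Every CePPy library lay below every vehicle library, and the CePPy libraries lay close together. The log2 fold change was -1.05 (SE 0.12; adjusted p = 0.0739 by edgeR; DESeq2 adjusted p = 2.76e-09). Leaving out any 1 library kept the log2 fold change between -1.17 and -0.95. Fbp2 had no stretch of 50 bases in common with an annotated transcript of another gene, Fbp1 included, so no read of that length would fit an annotated copy as well. Of 10 markers of skeletal muscle, the tissue best known for Fbp2, 9 were too low to test. Myh1, Myh2, Myh4 and Tnnt3 had no count in any library, and Ckm and Tnnc2 had at most 3. Mb had at most 11 counts, Acta1 had 4 to 12 and Mylpf had 5 to 24. The tenth, Pygm, lay between 4.60 and 7.27 CPM and its groups overlapped. The part of muscle tissue in the Fbp2 values was not tested.

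Fbp1, the liver and kidney form, measured 351, 249 and 340 CPM in vehicle and 736, 305 and 514 CPM in CePPy. CePPy 2 fell inside the vehicle range and the other CePPy libraries lay above it. The log2 fold change was 0.73 (SE 0.29; adjusted p = 0.236 by edgeR), and it became 0.995 (adjusted p = 0.0393) without CePPy 2 and 0.39 (adjusted p = 0.421) without CePPy 1. The count ratio of Fbp1 to Fbp2, taken within a library and so free of library scaling, was 5.99 in vehicle and 19.3 in CePPy (geometric means, n = 3 each). As log2 ratios the vehicle libraries stood at 2.56, 2.53 and 2.66 and the CePPy libraries at 4.80, 3.64 and 4.38. The difference of 1.69 (SE 0.34) gave p = 0.1 in a two-sided exact permutation test, the smallest p that 3 against 3 libraries allow, and an adjusted p of 0.186 over 13 isoenzyme pairs. Leaving out 1 library kept this difference between 1.43 and 2.01.

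The genes of other enzymes that gluconeogenesis needs and glycolysis does not use were spread widely among the CePPy libraries. G6pc, the catalytic subunit of glucose-6-phosphatase in liver, kidney and intestine, measured 89.96, 48.3 and 81.3 CPM in vehicle and 197, 83.1 and 216 CPM in CePPy. CePPy 2 lay within the vehicle range and both other CePPy libraries were well above it. The log2 fold change of 1.18 was the largest upward difference among the 34 genes (SE 0.36; adjusted p = 0.16 by edgeR). Pck1 measured 858, 647 and 1022 CPM in vehicle and 1426, 742 and 2580 CPM in CePPy. Its CePPy values differed more from each other than from vehicle, with CePPy 3 the highest of all 6 libraries (log2 fold change 0.91 with SE 0.40, adjusted p = 0.269 by edgeR), and without CePPy 3 the fold change was 0.37. Pcx, the mitochondrial carboxylase that turns pyruvate into oxaloacetate, measured 211, 181 and 214 CPM in vehicle and 371, 232 and 356 CPM in CePPy. Its groups did not overlap, although CePPy 2 was only just above vehicle (log2 fold change 0.66 with SE 0.18, adjusted p = 0.131 by edgeR; DESeq2 adjusted p = 0.00663).

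The widely expressed counterparts of these genes stayed in a narrow range. G6pc3, the ubiquitous glucose-6-phosphatase, measured 58.9, 61.5 and 59.4 CPM in vehicle and 56.9, 55.4 and 57.8 CPM in CePPy (log2 fold change -0.08 with SE 0.07, adjusted p = 0.555 by edgeR). Its groups did not overlap, although the difference was small. Pck2, the mitochondrial carboxykinase, ranged from 28.3 to 32.1 CPM in vehicle and from 26.0 to 28.7 CPM in CePPy (log2 fold change -0.15 with SE 0.09, adjusted p = 0.411 by edgeR), and had a fold change of -0.09 without vehicle 1. The log2 ratio of G6pc to G6pc3 differed by 1.19 (SE 0.52, exact permutation p = 0.2, n = 3 per group) and that of Pck1 to Pck2 by 0.90 (SE 0.60, exact permutation p = 0.3). Both sets of ratios overlapped between the groups, again through CePPy 2.

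Khk, ketohexokinase, traps fructose in the proximal tubule and liver. It measured 163, 162 and 140.1 CPM in vehicle and 310.2, 149.7 and 258 CPM in CePPy (log2 fold change 0.63 with SE 0.23, adjusted p = 0.211 by edgeR). Again CePPy 2 lay among the vehicle libraries, and the fold change was 0.87 without it and 0.40 without CePPy 1. Slc37a4, which carries glucose-6-phosphate to the phosphatase in the endoplasmic reticulum, measured 90.5, 75.2 and 86.7 CPM in vehicle and 161, 73.2 and 138 CPM in CePPy (log2 fold change 0.56 with SE 0.25, adjusted p = 0.282 by edgeR).

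Among the CePPy libraries, Fbp1, G6pc, Pck1, Pcx and Khk were lowest in CePPy 2, as were the proximal tubule markers by mean log2 level. On that scale the mean of 5 thick ascending limb markers was 2.05 in CePPy 1, 0.48 in CePPy 2 and 1.13 in CePPy 3. For 6 collecting duct markers it was 0.70, 0.31 and 0.53. G6pc and Pck1 were highest in CePPy 3, the proximal tubule markers in CePPy 1. Vehicle 2 held Fbp1, G6pc and Pck1 at -0.31, -0.55 and -0.36, with the proximal tubule markers at -0.04. Of the 12 proximal tubule markers, 11 had higher values in CePPy. The summed level of all 12 ran from 12460 to 13894 CPM in vehicle and from 12976 to 23592 CPM in CePPy. Most of this sum was Kap, at 8336 to 9379 CPM in vehicle and 8290 to 13933 CPM in CePPy, with overlapping groups. The mean log2 level of the proximal tubule markers was then subtracted from each gene within each library. This lowers the difference between the groups by the same amount for every gene, so it cannot show a link to the markers. The difference became 0.15 for Fbp1, 0.13 for Pcx and 0.06 for Khk. It was 0.61 for G6pc and 0.25 for Pck1, whose CePPy 3 values stood 1.09 and 1.12 above the markers. The difference was -1.54 for Fbp2 and -1.38 for Eno2, while it was 0.28 for Pfkfb3, 0.16 for Pklr and -0.09 for Hk1. The part of the marker level in these results was not tested.

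**Figure D2:**
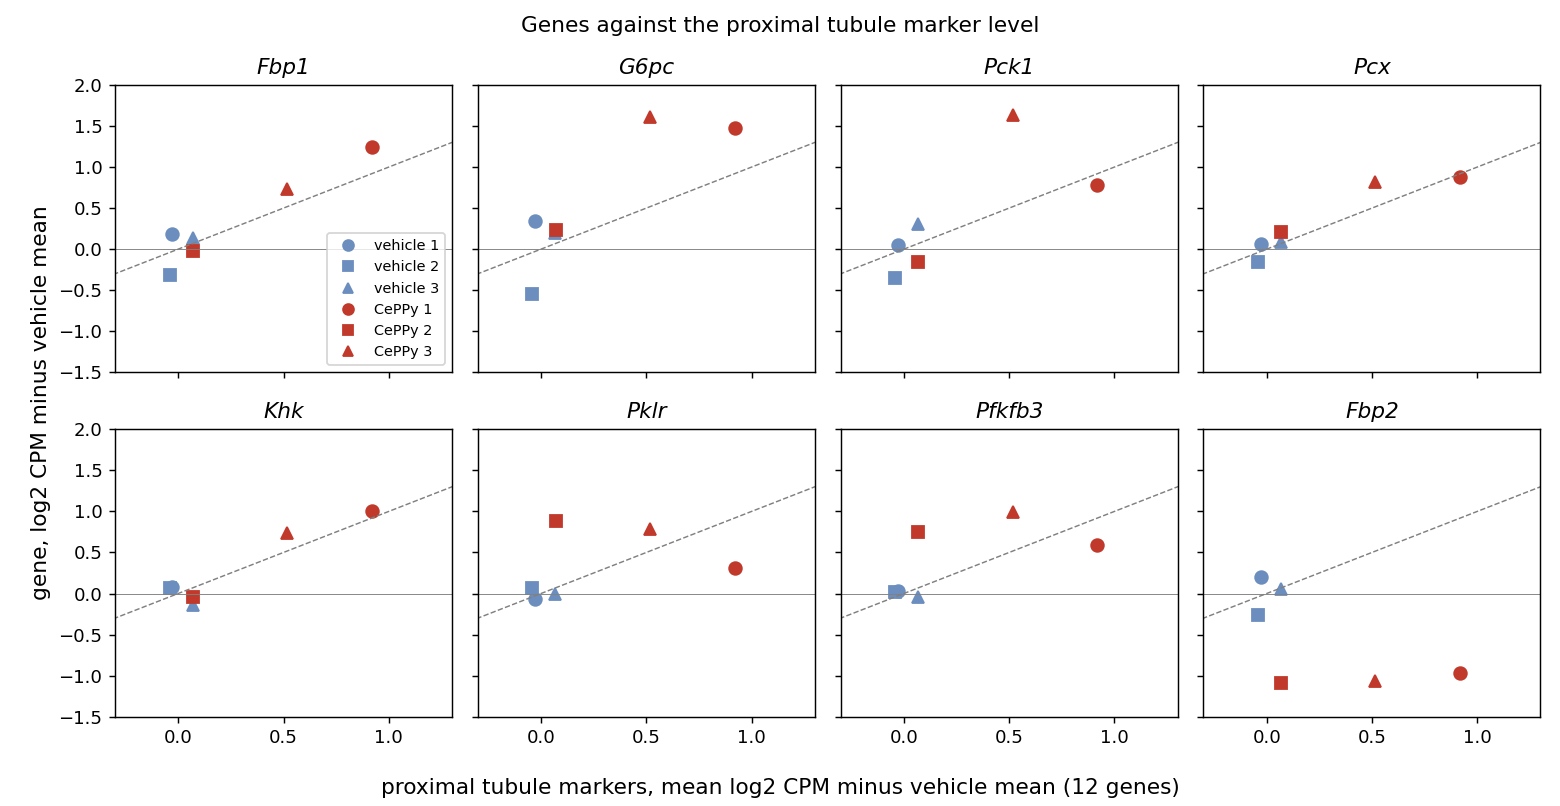
Log2 CPM of 8 genes (vertical) against the mean log2 CPM of 12 proximal tubule markers (horizontal), both relative to the vehicle mean, 1 point per library and a dashed line where both change equally. Fbp1, Pcx and Khk lie near the line, G6pc and Pck1 are above it in CePPy 3, and the 3 CePPy points of Fbp2 lie near -1 at every marker level.

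The first steps of glycolysis trap glucose and commit it. Hk1, the widespread hexokinase bound to mitochondria, measured 89.0, 105 and 91.4 CPM in vehicle and 138, 113 and 129 CPM in CePPy. All CePPy libraries were above all vehicle libraries (log2 fold change 0.41 with SE 0.10, adjusted p = 0.122 by edgeR; DESeq2 adjusted p = 0.0154). Hk2, the inducible hexokinase, was far lower at 5.76, 7.18 and 8.32 CPM in vehicle and 3.91, 7.44 and 7.10 CPM in CePPy. Its groups overlapped, and its log2 fold change of -0.20 (SE 0.27; adjusted p = 0.707 by edgeR) became 0.04 without CePPy 1. Hk3, the hexokinase of white blood cells, ranged from 1.70 to 3.49 CPM over all libraries (log2 fold change 0.19 with SE 0.34, adjusted p = 0.794 by edgeR), and became -0.15 without CePPy 1. Summed over 7 genes, neutrophil markers ran from 40.5 to 57.7 CPM in vehicle and from 12.2 to 26.4 CPM in CePPy, and macrophage markers from 209 to 248 and from 179 to 225 CPM. Gpi1, which interconverts glucose and fructose phosphates, ranged from 490.2 to 530 CPM in vehicle and from 435 to 494 CPM in CePPy (log2 fold change -0.12 with SE 0.09, adjusted p = 0.508 by edgeR).

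Phosphofructokinase, the main control point of glycolysis, is a tetramer of subunits from the liver gene Pfkl, the muscle gene Pfkm and the platelet gene Pfkp. Pfkm measured 29.2, 25.0 and 28.3 CPM in vehicle and 46.7, 31.2 and 35.6 CPM in CePPy, with no overlap (log2 fold change 0.46 with SE 0.15, adjusted p = 0.172 by edgeR), and without CePPy 1 its fold change was 0.28. Pfkl measured 64.9, 69.6 and 54.9 CPM in vehicle and 82.4, 69.8 and 83.8 CPM in CePPy, where CePPy 2 barely exceeded vehicle 2 (log2 fold change 0.32 with SE 0.11, adjusted p = 0.198 by edgeR). Pfkp ranged from 69.6 to 79.8 CPM in vehicle and from 70.7 to 83.2 CPM in CePPy and overlapped (log2 fold change 0.07 with SE 0.09, adjusted p = 0.728 by edgeR). Neither subunit ratio separated the groups: Pfkl to Pfkm differed by -0.12 on the log2 scale (SE 0.20, exact permutation p = 0.6, n = 3 per group) and Pfkp to Pfkm by -0.38 (SE 0.19, exact permutation p = 0.2).

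The Pfkfb genes encode enzymes that make and break the sugar bisphosphate that switches phosphofructokinase on and fructose bisphosphatase off. Pfkfb3 (ENSMUSG00000026773, chromosome 2, 11471433 to 11554077, minus strand), whose product mostly makes that signal, measured 16.9, 16.7 and 16.0 CPM in vehicle and 24.9, 27.9 and 32.9 CPM in CePPy. The vehicle libraries lay close together and every CePPy library was above them. The log2 fold change of 0.79 (SE 0.12; adjusted p = 0.0813 by edgeR; DESeq2 adjusted p = 1.33e-05) stayed between 0.68 and 0.88 when any 1 library was left out. Pfkfb2, the heart and kidney form, measured 7.80, 5.53 and 7.49 CPM in vehicle and 6.95, 8.30 and 10.1 CPM in CePPy, which overlapped (log2 fold change 0.28 with SE 0.20, adjusted p = 0.474 by edgeR). Its fold change was 0.15 without vehicle 2 and 0.14 without CePPy 3. Pfkfb4 ranged from 5.82 to 7.21 CPM in vehicle and from 5.48 to 6.77 CPM in CePPy (log2 fold change -0.11 with SE 0.17, adjusted p = 0.741 by edgeR). The log2 ratio of Pfkfb3 to Pfkfb2 was higher in each CePPy library, by 0.49 (SE 0.17, exact permutation p = 0.1, n = 3 per group).

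**Figure D3:**
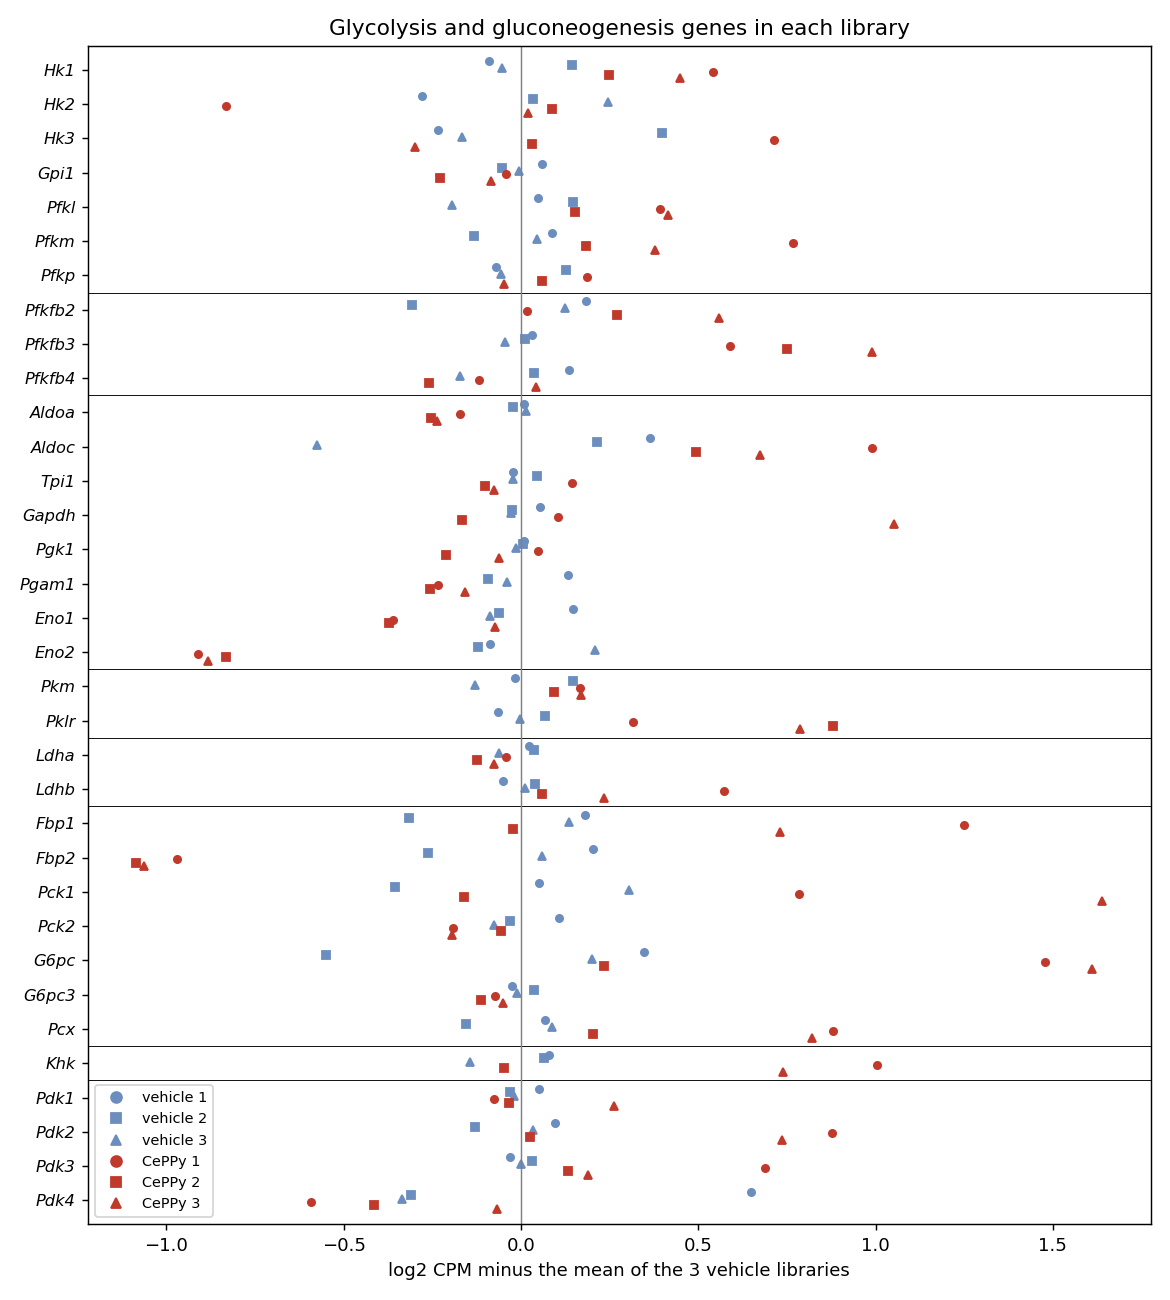
Log2 CPM of each gene minus its mean over the 3 vehicle libraries, with genes in blocks from hexokinases at the top through gluconeogenesis to the pyruvate dehydrogenase kinases at the bottom, vehicle in blue and CePPy in red. The 3 CePPy points of Fbp2, Eno2 and Pfkfb3 lie together on 1 side of vehicle, whereas those of Fbp1, Pck1, G6pc and Khk are spread, with CePPy 2 near 0.

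The reversible middle and lower steps were covered by 8 genes, of which 6 had lower and 2 higher values after CePPy. Aldoa, the widespread aldolase, measured 1263, 1235 and 1267 CPM in vehicle and 1114, 1052 and 1064 CPM in CePPy. The groups were apart although the difference was only 1.17-fold (log2 fold change -0.22 with SE 0.09, adjusted p = 0.233 by edgeR; DESeq2 adjusted p = 0.0432). Pgam1, phosphoglycerate mutase, measured 488, 418 and 433 CPM in vehicle and 379, 373 and 399 CPM in CePPy, also without overlap (log2 fold change -0.22 with SE 0.09, adjusted p = 0.252 by edgeR). Eno1, the main enolase, measured 1319, 1142 and 1122 CPM in vehicle and 928, 921 and 1133 CPM in CePPy, where CePPy 3 reached into the vehicle range (log2 fold change -0.27 with SE 0.12, adjusted p = 0.287 by edgeR). Pgk1, phosphoglycerate kinase, had a log2 fold change of -0.07 (SE 0.10; adjusted p = 0.718 by edgeR) and Tpi1, triose phosphate isomerase, one of -0.01 (SE 0.10; adjusted p = 0.976 by edgeR), and the values of both overlapped.

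The low isoforms of this stretch differed more. Eno2, the enolase best known from neurons, measured 2.53, 2.47 and 3.12 CPM in vehicle and 1.41, 1.49 and 1.43 CPM in CePPy. These came from 84 to 105 counts in vehicle and 43 to 56 in CePPy, and no library crossed over (log2 fold change -0.91 with SE 0.24, adjusted p = 0.131 by edgeR; DESeq2 adjusted p = 0.0475). Aldoc, the brain-type aldolase, went the other way, at 5.07, 4.56 and 2.61 CPM in vehicle and 7.85, 5.56 and 6.30 CPM in CePPy (log2 fold change 0.69 with SE 0.27, adjusted p = 0.231 by edgeR), and its fold change was 0.45 without vehicle 3. Within libraries, the log2 ratio of Eno1 to Eno2 differed by 0.63 (SE 0.19) and that of Aldoa to Aldoc by -0.95 (SE 0.32), each with separate groups and the smallest possible exact permutation p of 0.1 (n = 3 per group).

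Gapdh, glyceraldehyde phosphate dehydrogenase, is often used as a reference gene. It measured 63.0, 59.6 and 59.5 CPM in vehicle and 65.3, 54.0 and 126 CPM in CePPy, so that CePPy 3 stood far above the other 5 libraries, among which the groups overlapped. The log2 fold change of 0.43 (SE 0.28; adjusted p = 0.433 by edgeR) became -0.02 without CePPy 3. Per kilobase of transcript, Gapdh stood at 42.7 ± 1.39 CPM in vehicle (SD, n = 3), against 457 ± 12.2 for Tpi1 and 363 ± 2.79 for Pgk1, which act just before and just after it. Of the stretches of 50 bases in its principal transcript, 82.5% were also found in annotated transcripts of other genes, the highest share among the 34. Eno1 followed with 72.2%, Pgk1 with 68.0%, Pgam1 with 41.5% and Pkm with 34.4%. Ldhb had 27.0%, Gpi1 25.3%, Pfkfb2 25.1%, Pklr 23.2%, Ldha and Pfkp 17.1% each, Aldoa 13.9% and Tpi1 7.51%. Levels, fold changes and isoenzyme ratios of all these genes are uncertain if reads with several matches were dropped or split. Of 6 adipocyte markers, 3 were high enough to test, and these summed to 4.20, 2.27 and 0.624 CPM in vehicle and 1.13, 6.81 and 13.2 CPM in CePPy, also highest in CePPy 3. The part of shared stretches or of these markers in the Gapdh values was not tested.

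Pyruvate kinase makes pyruvate in the last step of glycolysis. Pklr (ENSMUSG00000041237, chromosome 3, 89136142 to 89146784, plus strand), the liver and red cell form that the proximal tubule also uses, measured 49.6, 54.5 and 51.8 CPM in vehicle and 64.7, 95.7 and 89.7 CPM in CePPy. Unlike the gluconeogenic genes it was highest in CePPy 2, and all CePPy libraries were above vehicle (log2 fold change 0.68 with SE 0.14, adjusted p = 0.102 by edgeR; DESeq2 adjusted p = 0.000992). The 6 red cell markers summed to between 305 and 378 CPM in vehicle and stood at 305, 320.3 and 421 CPM in CePPy, 2 of them with higher and 4 with lower values; their part in the result was not tested. Pkm, the form of most other cells, ranged from 306 to 371 CPM in vehicle and from 357 to 377 CPM in CePPy and overlapped (log2 fold change 0.14 with SE 0.10, adjusted p = 0.457 by edgeR). The count ratio of Pkm to Pklr was 6.45 in vehicle and 4.50 in CePPy, a log2 difference of -0.52 (SE 0.20) without overlap (exact permutation p = 0.1, n = 3 per group).

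Lactate dehydrogenase is built from the Ldha subunit, which favours lactate formation, and the Ldhb subunit, which favours lactate use. Ldhb measured 731, 778 and 763 CPM in vehicle and 1126, 789.5 and 890.1 CPM in CePPy. CePPy 2 was only just above the highest vehicle library (log2 fold change 0.30 with SE 0.14, adjusted p = 0.278 by edgeR), and without CePPy 1 the fold change was 0.15. Ldha overlapped at 870.3 to 932 CPM in vehicle and 834 to 883 CPM in CePPy (log2 fold change -0.08 with SE 0.09, adjusted p = 0.644 by edgeR). Their count ratio, Ldha to Ldhb, was 1.20 in vehicle and 0.929 in CePPy, a log2 difference of -0.37 (SE 0.13, exact permutation p = 0.1, n = 3 per group), and the groups did not overlap.

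**Figure D4:**
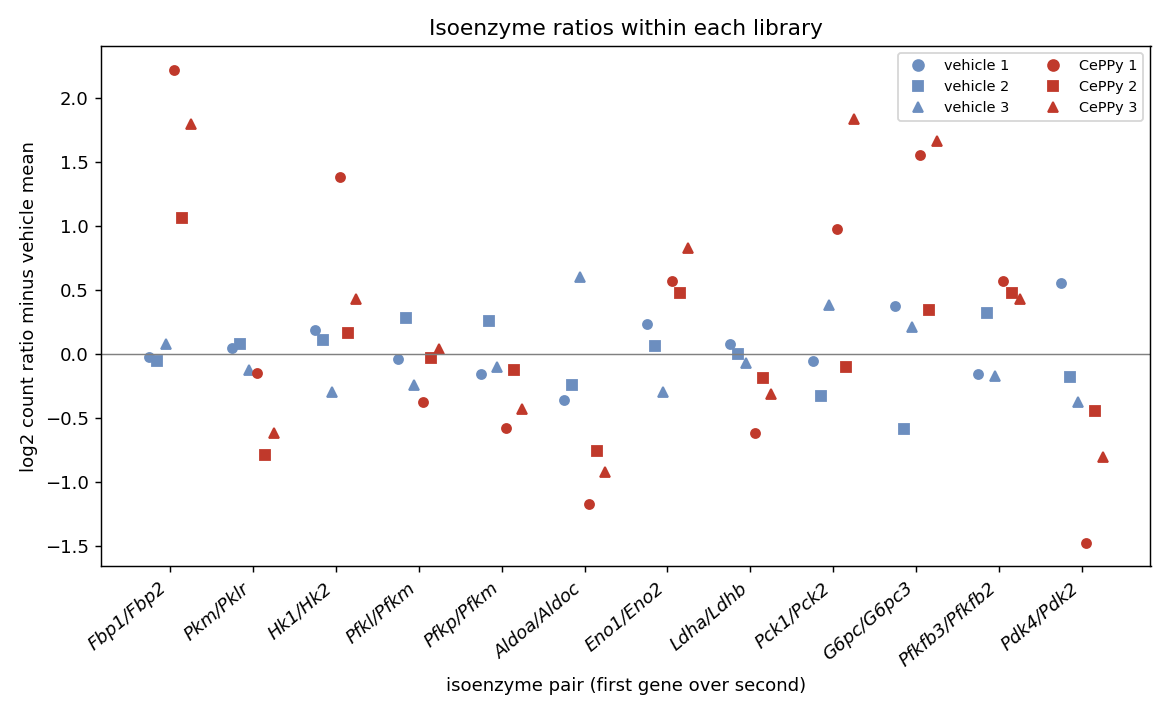
Log2 ratio of the counts of 2 isoenzyme genes in each library, minus the vehicle mean, for 12 pairs, vehicle in blue and CePPy in red. The CePPy libraries lie wholly above vehicle for 3 pairs and wholly below for 4, with the widest gap for Fbp1 to Fbp2, and overlap vehicle for the other 5. Each pair without overlap had an exact permutation p of 0.1 and an adjusted p of 0.186 over 13 pairs. How often ratios of other gene pairs separate the groups was not examined, and for single genes the share was 26.3%.

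Pyruvate dehydrogenase kinases switch off the complex that burns pyruvate in mitochondria. Pdk2 measured 94.7, 81.0 and 90.7 CPM in vehicle and 163, 90.2 and 148 CPM in CePPy. CePPy 2 again lay inside the vehicle range (log2 fold change 0.59 with SE 0.20, adjusted p = 0.184 by edgeR; DESeq2 adjusted p = 0.0492). Pdk3 measured 30.9, 32.3 and 31.6 CPM in vehicle and 51.0, 34.7 and 36.1 CPM in CePPy, with no overlap (log2 fold change 0.36 with SE 0.15, adjusted p = 0.242 by edgeR). CePPy 1 was the highest, and without it the fold change was 0.16. Pdk4, the form induced by fasting and glucocorticoids, measured 93.7, 48.2 and 47.3 CPM in vehicle and 39.6, 44.8 and 57.0 CPM in CePPy. Its negative fold change of -0.42 (SE 0.27; adjusted p = 0.428 by edgeR) leaned on vehicle 1, which was well above the other 5 libraries, and was -0.02 without it. Pdk1 lay between 27.3 and 34.5 CPM in all libraries (log2 fold change 0.06 with SE 0.11, adjusted p = 0.805 by edgeR). The log2 ratio of Pdk4 to Pdk2 was lower in each CePPy library, by a difference of -0.91 (SE 0.41, exact permutation p = 0.1, n = 3 per group).

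Per kilobase, Aldoa led the 34 genes with 831 ± 11.4 CPM in vehicle (SD, n = 3). Below Aldoa came Eno1 at 589 ± 53.5, Ldhb at 581 ± 18.7 and Ldha at 515 ± 19.1, of which Eno1 and Ldhb did not differ beyond their spread. Fbp1, at 212 ± 37.8 CPM per kilobase in vehicle, was well above Fbp2 at 38.5 ± 6.13, and the distance was wider in CePPy, at 350.2 ± 146 and 18.6 ± 0.805. Pkm stood at 138 ± 13.4 and Pklr at 17.9 ± 0.833 in vehicle, so the kidney's Pklr remained the lesser transcript there. Among hexokinases the order in vehicle was Hk1 at 24.7 ± 2.20, Hk2 at 1.29 ± 0.232 and Hk3 at 0.668 ± 0.174 CPM per kilobase. Hk3 and Eno2 (0.969 ± 0.128) were the lowest of the 34.

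**Figure D5:**
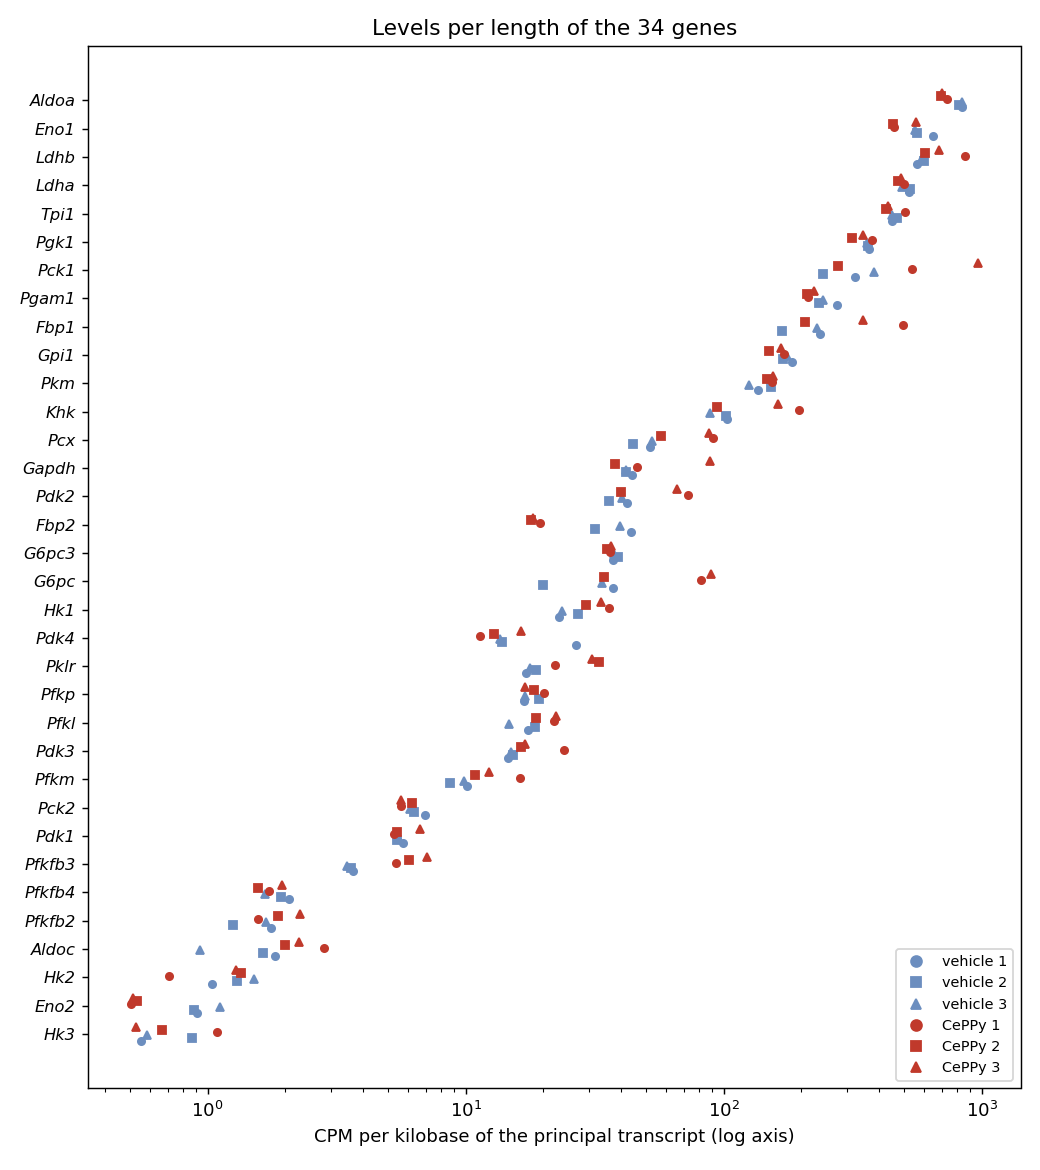
CPM per kilobase of the principal transcript (log axis) for the 34 genes in each library, ordered by the vehicle mean. Aldoa and Eno1 are at the top and Hk3 and Eno2 at the bottom, and the CePPy points of Fbp2 all fall left of vehicle, with means of 38.5 and 18.6.

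Further genes of these pathways were read from lists that had no member in common with the 34. For the counts below, the shares over all genes were 19.0% for an unadjusted edgeR p under 0.05 and 6.60% for DESeq2 calls. Among 15 other glycolysis genes, 12 were tested, none passed edgeR (1 reached an unadjusted p under 0.05) and DESeq2 called none. The testis forms Pgk2 and Ldhc had no count in any library. Ldhd, which oxidises the mirror form of lactate, had the lowest p, at 441 ± 69.1 CPM in vehicle libraries and 586 ± 90.8 CPM after CePPy (log2 fold change 0.41 with SE 0.15, adjusted p = 0.209 by edgeR, n = 3). Of 16 genes that serve glucose output and fructose or shuttle reducing power to it, 14 were tested, none passed edgeR (4 reached an unadjusted p under 0.05), and DESeq2 called Mdh1 higher and Got2 lower. Gpt, the alanine transaminase that makes pyruvate from alanine, had the lowest edgeR p of these, at 5.40 ± 1.04 CPM in vehicle and 8.19 ± 0.718 CPM in CePPy (SD, n = 3), without overlap (log2 fold change 0.60 with SE 0.19, adjusted p = 0.160 by edgeR). Mdh1, the cytosolic malate dehydrogenase, measured 530.5, 540.0 and 575 CPM in vehicle and 1109, 595 and 792 CPM in CePPy (log2 fold change 0.60 with SE 0.20, adjusted p = 0.182 by edgeR). Got2, the mitochondrial aspartate transaminase, measured 394, 386 and 389 CPM in vehicle and 348, 321 and 317 CPM in CePPy (log2 fold change -0.25 with SE 0.08, adjusted p = 0.172 by edgeR).

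The 10 genes of pyruvate entry into mitochondria comprise the carrier, the dehydrogenase complex and its phosphatases. Of these, 9 had higher values and 1 lower, and neither edgeR nor DESeq2 called any. An unadjusted p under 0.05 was reached by 2 of the 10, against 19.0% of all genes. Pdpr, the regulatory subunit of pyruvate dehydrogenase phosphatase, had the lowest p of the 10, at 13.7, 17.8 and 19.3 CPM in vehicle and 23.6, 21.9 and 23.0 CPM in CePPy, without overlap (log2 fold change 0.43 with SE 0.14, adjusted p = 0.165 by edgeR). Mpc2, a subunit of the pyruvate carrier, measured 123, 119.6 and 123 CPM in vehicle and 198, 123 and 151 CPM in CePPy (log2 fold change 0.37 with SE 0.16, adjusted p = 0.257 by edgeR). Among 14 transcription factors and coactivators that govern these enzymes, 2 reached an unadjusted p under 0.05, against 19.0% of all genes. EdgeR called none of the 14, and DESeq2 called 1, higher in CePPy, against 6.60% of the genes it could adjust. That gene was Ppargc1a, the coactivator PGC-1 alpha, at 23.2, 27.7 and 30.3 CPM in vehicle and 42.6, 32.4 and 44.3 CPM in CePPy (log2 fold change 0.55 with SE 0.15, adjusted p = 0.131 by edgeR). Hif1a, the hypoxia-inducible factor that drives many glycolysis genes, measured 125, 132 and 118 CPM in vehicle and 125, 155 and 160.4 CPM in CePPy and overlapped (log2 fold change 0.23 with SE 0.11, adjusted p = 0.296 by edgeR).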

How the data were processed

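The deposited values are whole-number read counts per gene, made by the authors without normalization, per the labels. TopHat2, Cufflinks, DESeq and GRCm38 are named, without versions, in the submitters' processing notes. How reads were counted, by strand or with several matches, is not stated there. Each library used 2 µg of TRIzol-extracted RNA, per the labels' protocols. Groups came from the sample titles. Counts were filtered with filterByExpr and tested with the quasi-likelihood test of edgeR 4.0.16 (R 4.3.3, TMM scaling, treatment as the only term, 4 residual degrees of freedom). This fit was tried on simulated counts with the same spread in both groups. That trial does not cover the wider spread seen among the CePPy libraries. Benjamini-Hochberg adjustment ran over the 15416 genes tested, with a threshold of 0.05. DESeq2 1.42.0 and limma 3.58.1 served as alternatives. Errors are the SD over 3 libraries or the SE of a log2 fold change. Isoenzyme ratios used counts plus 0.5 and a two-sided exact permutation test. Levels relative to a group used log2 CPM with a prior count of 2. Lengths, coordinates and shared stretches of 50 bases came from GENCODE M21 (GRCm38), with the principal transcript of each gene, and promoters from RefSeq, where all 34 symbols matched. Replicates of a group differed by more than sampling noise (chi-square per degree of freedom from 19.7 to 106). The genes, lists and pairs were chosen with earlier results of these data known, and levels set against proximal tubule markers were added after the values were seen. All 34 genes are named; of the other lists, up to 4 genes of lowest p could be named, and Slc37a4 and Hif1a always. The adjustment over 13 isoenzyme pairs includes 1 pair that is not reported here.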

Additional observations from a re-analysis of the deposited data

How the results depend on the processing

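The number of genes called over the whole table, 1 with edgeR, was 993 with DESeq2, 352 with limma-voom and sample weights, 63 without the low count filter and 0 with the replicate number as a block. It ranged from 0 to 811 when 1 library was left out. Of the 34 genes, DESeq2 called 8, limma-voom with sample weights 3 and edgeR without the low count filter 2, and edgeR with 1 library left out called from 0 to 9. Their median log2 fold change of 0.16 ranged from 0.0873 to 0.219 with 1 library left out and was 0.15 with the block. Among the 34, direction turned for Tpi1 (-0.0872 to 0.0365), Hk3 (-0.15 to 0.43), Hk2 (-0.368 to 0.0413), Pdk1 (-0.0509 to 0.12) and Gapdh (-0.0216 to 0.652, against 0.43 with all libraries), each with 1 library left out, and Hk3 at -0.0579 with sample weights. The ratio of Pfkl to Pfkm ranged from -0.24 to 0.0168. The cause was not tested. Libraries with the same replicate number did not deviate together (correlations -0.15, 0.0978 and -0.021), so the numbers were not taken as pairs. With the block, the lowest edgeR adjusted p among the 34 was 0.12, for Fbp2, and sign-flip tests of the ratio of Fbp1 to Fbp2 could not go below p = 0.25 in an exact test. RLE scaling, library totals and leaving out mitochondrially encoded genes changed no call or direction among the 34. Counts as low as 43 limit Eno2.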
